A study of Homo sapiens with 6 samples.

Results

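The genes described here are 10 genes that mark epithelial cells, taken by symbol from a table of 59251 gene rows: the transcription factors ELF3 and GRHL2, the splicing factor ESRP1, the adhesion proteins CDH1 and EPCAM, the apical transport protein MAL2 and the keratins KRT8, KRT18, KRT19 and KRT20. All 10 symbols had a row, and 9 passed the filter on low counts. KRT20, with 0 to 11 counts per library, did not. Total RNA of HCT116, an established human colorectal cancer cell line, was sequenced in 3 libraries carrying N106S on both alleles of the eIF6 gene (MUT) and in 3 wild-type libraries (WT). eIF6 sits on the large ribosomal subunit and blocks its union with the small subunit. The series title concerns subunits held in inactive ribosomes, exit from mitosis and cancer progression. Per the labels, the mutant cells came from CRISPR/Cas9-edited clones, and cells of either genotype were grown in McCoy's 5A medium with serum and antibiotics to 60 to 70% density, with no other treatment. The labels do not give the number of clones or say whether replicates were separate cultures, so p-values measure the spread between these libraries, which may be technical. Differences between clones and effects of the substitution cannot be told apart. The members were chosen by symbol and selected on earlier results for these libraries, that is with their MUT to WT fold changes in view. Their fold changes and calls below are a description and no independent evidence.

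Epithelial cells are joined into sheets by E-cadherin (CDH1) and EPCAM and are stiffened by keratin filaments, each built from a pair of one type II keratin (such as KRT8) and one type I keratin (such as KRT18, KRT19 or KRT20). Transcription factors of the ETS family (ELF3) and the grainyhead family (GRHL2) drive epithelial genes, and ESRP1 directs the splicing forms typical of epithelium. In an epithelial-mesenchymal transition, factors such as SNAI1 and TWIST1 repress these genes and mesenchymal proteins such as vimentin appear.

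Libraries held 53986494 to 80146608 counts in MUT and 63951768 to 87656970 in WT. Most of these were 7SL, 7SK, RPPH1 and RMRP RNA, without which 11094084 to 21984081 counts remained in MUT and 10252501 to 17798865 in WT. MUT replicate 2 stood apart, with 3.91% of counts in ribosomal RNA against 0.0891% and 0.139% in the other MUT libraries, and WT replicate 1 had 1.16% against 0.118% and 0.234% in the other WT libraries. EIF6 itself had 36.7, 30.7 and 35.7 CPM (counts scaled to library size) in MUT and 43.3, 47.9 and 47.4 CPM in WT (log2 fold change -0.43, SE 0.12; edgeR adjusted p = 0.11). The edit changes an amino acid, so this level does not check the genotype. CPM here is relative to the total count scaled by TMM factors, which includes the abundant noncoding RNA. The levels of mRNA are therefore low on this scale. Markers of endothelial and blood cells were near 0. The summed level of 5 endothelial markers was at most 0.0616 CPM in MUT and 0.0434 CPM in WT. That of 6 blood cell markers was at most 0.067 CPM in MUT and 0.0463 CPM in WT. The 7 fibroblast markers summed to 1.66 to 2.73 CPM in MUT and 0.637 to 3.12 CPM in WT, and these ranges overlapped. In bulk RNA, fewer cells of a type and less RNA per cell cannot be told apart.

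In MUT cells, MAL2 and ELF3 fell, to 28.3% and 52.0% of the WT level. GRHL2, CDH1, ESRP1 and EPCAM had lower values that did not pass the test, and the 3 abundant keratins KRT8, KRT18 and KRT19 had values from 0.05 to 0.32 on the log2 scale that did not pass either. Of the 9 tested members 2 were called lower and 0 higher at an adjusted p of 0.05, in a fit where 0.925% of 14808 genes were called lower and 0.986% higher. Values of 3 MUT and 3 WT libraries did not overlap for 6 members that were lower in MUT and for 1 that was higher, against 13.4% and 12.8% of all tested genes. Because the members were chosen with this contrast known, nothing is read from these counts. The median log2 fold change of the 9 tested members was -0.46, and that of all tested genes was -0.01. An unadjusted p below 0.05 was reached by 7 of the 9 members and by 2906 of all 14808 tested genes. The plot of levels by library shows the separation of MAL2 and ELF3 and the closeness of KRT18 and KRT19.

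**Figure D1:**
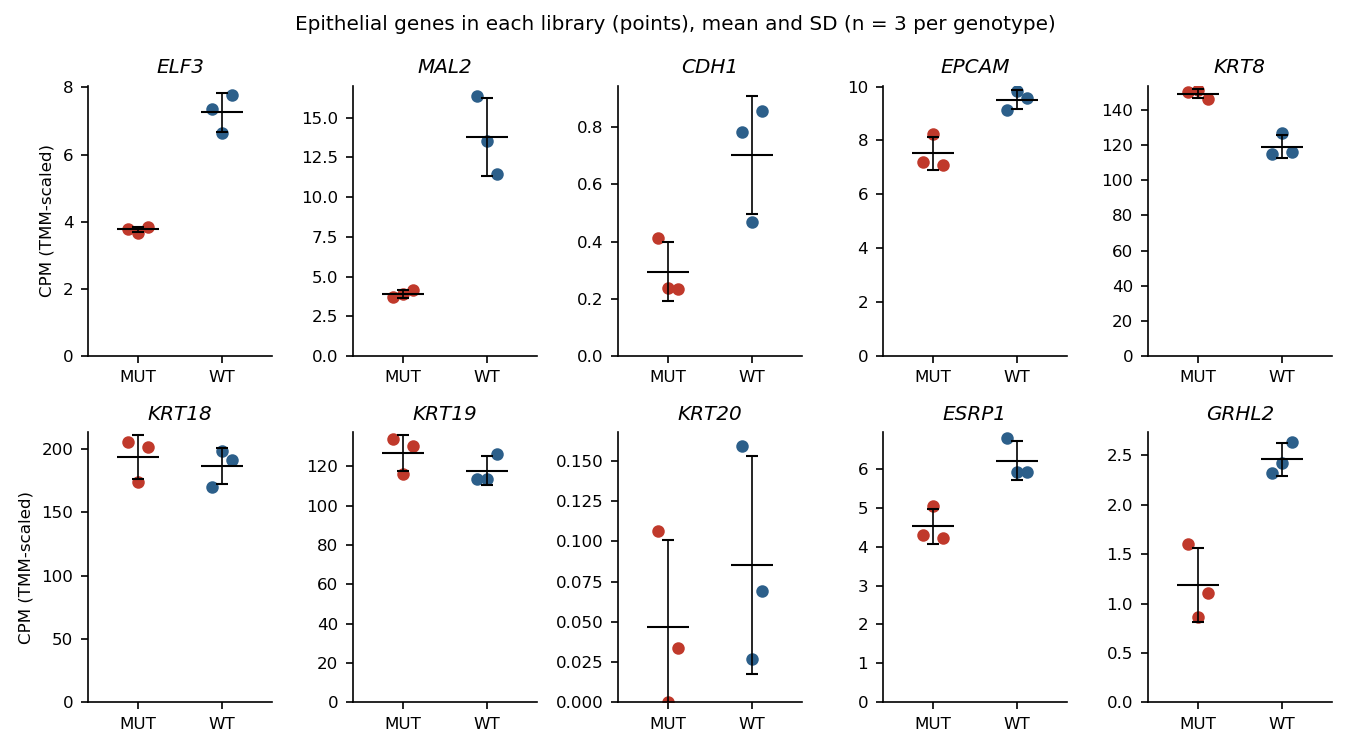
Level of each of the 10 genes in CPM relative to the TMM-scaled total (vertical axes from 0, a scale for each gene), with MUT left and WT right; points are libraries, the horizontal line is the mean and bars are the SD (n = 3). MAL2 lies between 3.69 and 4.17 CPM in MUT and between 11.5 and 16.4 CPM in WT, while the values of KRT18 and KRT19 overlap.

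**Figure D2:**
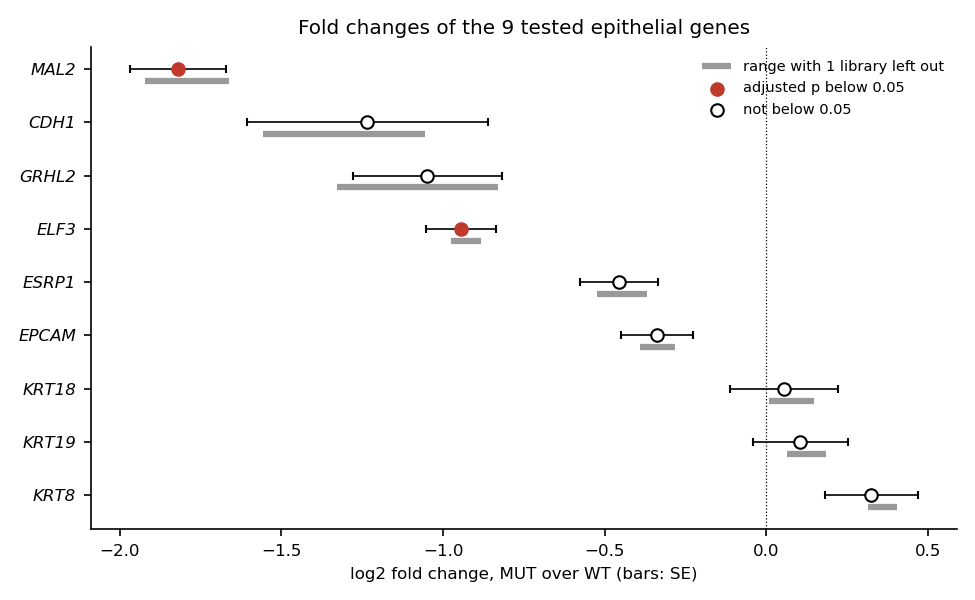
Log2 fold change of MUT over WT (horizontal axis) for the 9 tested genes, with the SE as bars and the range over the fits that leave out 1 library in grey; filled points passed an adjusted p of 0.05 over all tested genes. MAL2 (-1.82) and ELF3 (-0.94) passed, and the 3 keratins lie right of 0.

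ELF3 is an ETS factor of simple epithelia (chromosome 1, 202010587 to 202017183, GRCh38). It had 3.77, 3.68 and 3.85 CPM in MUT and 7.36, 6.63 and 7.78 CPM in WT. The 3 MUT values were close together and below every WT value. The log2 fold change was -0.94 (SE 0.11; edgeR adjusted p = 0.0065). The adjusted p was 0.0502 without MUT replicate 1 and 0.0515 without WT replicate 1, so the call was lost there, and it was kept without each of the other 4 libraries. By library size alone the value was -0.38, where the median of all genes was 0.54, and it did not pass (adjusted p = 0.48). On the scale of TPM (a share of transcripts, per length) rescaled to protein-coding genes, the value was -0.45, or -0.72 relative to the median of all genes, and its adjusted p in limma was 0.0727. ELF3-AS1, a neighbouring noncoding gene picked outside the naming rule given below, lies upstream of ELF3. It had 0.226, 0.246 and 0.318 CPM in MUT and 0.405, 0.534 and 0.694 CPM in WT (log2 fold change -1.04, SE 0.35; adjusted p = 0.147). The groups did not overlap for it, as was so for 26.1% of all tested genes.

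RefSeq promoters, from 250 bases before to 50 after a start in that table on GRCh38.p14, were at hand for 3 of the 10 genes. For ELF3 and KRT20 this start is the outer end of the gene span, while the KRT8 window lies inside the longer KRT8 span given below and not at its outer end. These 3 are shown because no other member had a promoter at hand. The windows are not tied by any test to the outcomes of the genes: ELF3 fell, KRT8 was abundant with a value above 0 that did not pass, and KRT20 was near 0 counts. ELF3 lies on the plus strand at chr1:202010337-202010636, KRT8 on the minus strand at chr12:52926420-52926719 and KRT20 on the minus strand at chr17:40885193-40885492. Capitals mark the E-box bound by the SNAI and ZEB repressors (CACCTG, either strand), an ETS core (GGAAG, either strand) and a TATA box (TATAAA, plus strand of the gene).
ELF3: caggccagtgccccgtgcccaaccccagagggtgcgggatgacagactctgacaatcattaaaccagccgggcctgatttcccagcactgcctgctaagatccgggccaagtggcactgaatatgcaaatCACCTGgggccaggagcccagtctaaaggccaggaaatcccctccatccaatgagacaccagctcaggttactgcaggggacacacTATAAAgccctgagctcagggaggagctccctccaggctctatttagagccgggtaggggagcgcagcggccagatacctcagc
KRT8: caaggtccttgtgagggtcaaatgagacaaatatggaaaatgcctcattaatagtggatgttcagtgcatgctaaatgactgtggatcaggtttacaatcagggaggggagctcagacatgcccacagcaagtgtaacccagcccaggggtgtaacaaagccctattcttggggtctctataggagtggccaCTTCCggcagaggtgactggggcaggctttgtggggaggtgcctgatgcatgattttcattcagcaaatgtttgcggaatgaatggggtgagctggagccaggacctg
KRT20: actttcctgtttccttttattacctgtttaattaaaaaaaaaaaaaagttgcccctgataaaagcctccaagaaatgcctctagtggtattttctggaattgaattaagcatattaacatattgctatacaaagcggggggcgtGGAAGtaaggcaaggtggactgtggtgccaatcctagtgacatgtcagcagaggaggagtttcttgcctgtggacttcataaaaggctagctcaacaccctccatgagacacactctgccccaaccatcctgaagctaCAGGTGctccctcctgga
The ELF3 window held 1 E-box 120 bases before the start and 1 TATA box 34 bases before it. The KRT8 window held 1 ETS core, 58 bases before the start used there. Which KRT8 start gave the counted mRNA was not tested, so this window may not be that of the abundant transcript. The KRT20 window held 1 ETS core before the start and 1 E-box at base 33 after it. Of all 35116 promoter windows, 20.6% held this E-box, 71.9% this ETS core and 7.33% this TATA box. The grainyhead site AACCGGTT, present in 0.134% of windows, was in none of these 3 windows, nor was its looser form AACNNGTT, present in 3.52%. A match is a description of letters and not of a bound factor.

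GRHL2 is a grainyhead factor that keeps up junction genes (chromosome 8, 101492439 to 101681200). It had 1.6, 0.863 and 1.11 CPM in MUT and 2.32, 2.42 and 2.64 CPM in WT. The groups did not overlap, and MUT replicate 2 was the lowest. The log2 fold change of -1.05 (SE 0.23) did not pass the test (edgeR adjusted p = 0.0557), in the full fit or without any 1 library (0.0532 to 0.175). It did pass in DESeq2's test (adjusted p = 0.00444), with a minimum of 1 CPM in 3 libraries (0.045) and without a low-count filter (7.47e-05). GRHL2 did not pass in edgeR by library size alone (adjusted p = 0.323), with DESeq2's size factors (0.0567) or with the replicate block (0.062). Nor did it without abundant noncoding and ribosomal RNA (0.0546) or in the 4 libraries low in ribosomal RNA (0.0673). In limma on TPM rescaled to protein-coding genes the adjusted p was 0.0954. Other factors of epithelial identity gave no call: of 22 listed, 15 were tested, 11 had values below 0 and 4 above, and the median was -0.13. KLF4, a factor of gut differentiation, had 3.18, 3.24 and 3.0 CPM in MUT and 4.79, 3.63 and 3.68 CPM in WT (-0.36, adjusted p = 0.2). SOX9, a factor of intestinal crypts, had 4.73, 4.18 and 4.68 CPM in MUT and 3.66, 3.30 and 2.75 CPM in WT (0.48, adjusted p = 0.104), and KLF5 overlapped (-0.27, adjusted p = 0.491). EHF, an ETS factor close to ELF3 that was picked after its values were seen, had 1.01 to 1.5 CPM in MUT and 1.94 to 2.59 CPM in WT (-0.75, adjusted p = 0.098). None of KLF4, SOX9 and EHF overlapped between the groups, as was so for 26.1% of all tested genes.

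ESRP1, the epithelial splicing regulator (chromosome 8, 94641174 to 94707466), had 4.30, 5.03 and 4.22 CPM in MUT and 6.79, 5.91 and 5.92 CPM in WT. Every MUT value was below every WT value, with a log2 fold change of -0.46 (SE 0.12; edgeR adjusted p = 0.0885). By library size alone the value was 0.12, where the median of all genes was 0.54. Its paralog ESRP2, also picked after its values were seen, overlapped at 1.92, 2.0 and 2.13 CPM in MUT and 2.09, 2.11 and 2.31 CPM in WT (-0.10, adjusted p = 0.752). Of 9 other splicing regulators of the epithelial-mesenchymal axis, ESRP2 included, 0 were called, 6 had values below 0 and the median was -0.10. The polypyrimidine tract protein PTBP1 was at 0.08 (adjusted p = 0.795) and HNRNPM at 0.34 (0.319). MBNL1, which favours adult splicing forms, had 10.3, 9.95 and 9.45 CPM in MUT and 16.2, 11.9 and 14.1 CPM in WT (-0.50, adjusted p = 0.0946), with no overlap. Gene totals say nothing of the splicing forms themselves.

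CDH1 was scarce. E-cadherin's gene (chromosome 16, 68737292 to 68835537) had 31, 23 and 14 counts in MUT and 54, 35 and 37 in WT, which is 0.413, 0.236 and 0.235 CPM in MUT and 0.782, 0.468 and 0.856 CPM in WT. It ranked at 11155 of 14557 protein-coding genes with any TPM. The data thus go against CDH1 as an abundant marker of these libraries, while EPCAM (rank 1824) and the 3 keratins (ranks 199 to 303) were abundant. The groups did not overlap, but the log2 fold change of -1.23 (SE 0.37) did not pass (edgeR adjusted p = 0.119; 0.142 to 0.291 with 1 library left out). In edgeR without a low-count filter it passed (adjusted p = 0.0336). It did not in DESeq2's test (adjusted p = 0.0749) or, in edgeR, in the 4 libraries low in ribosomal RNA (0.319). At these counts only large differences are detectable.

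Genes around CDH1 also had mostly negative values. Of 36 tested genes within 1 Mb, 29 had values below 0 (7601 of 14808 over all genes), with a median of -0.21, and 2 fell: NUTF2 (-0.81, edgeR adjusted p = 0.0374), a nuclear transport factor, and CYB5B (-0.70, adjusted p = 0.038), an outer mitochondrial membrane cytochrome. CDH3, the P-cadherin gene next to it, was picked after its values were seen; it had 1.82, 2.0 and 2.08 CPM in MUT and 2.94, 3.14 and 2.87 CPM in WT (-0.60, SE 0.13; adjusted p = 0.0562). Whether this region's values have a part in that of CDH1 was not tested. The windows of the other members on chromosomes 1, 2, 8 and 12 held no called gene. Around MAL2, 4 of 6 tested genes had values below 0 (median -0.12); around ELF3 12 of 26 did (0.06), around GRHL2 5 of 11 (0.01), around ESRP1 13 of 21 (-0.24), around EPCAM 7 of 16 (0.10) and around KRT8 16 of 32 (0.00). MAL2, ESRP1 and GRHL2 all lie on chromosome 8, where 258 of 500 tested genes had values below 0 and the median was -0.02.

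**Figure D3:**
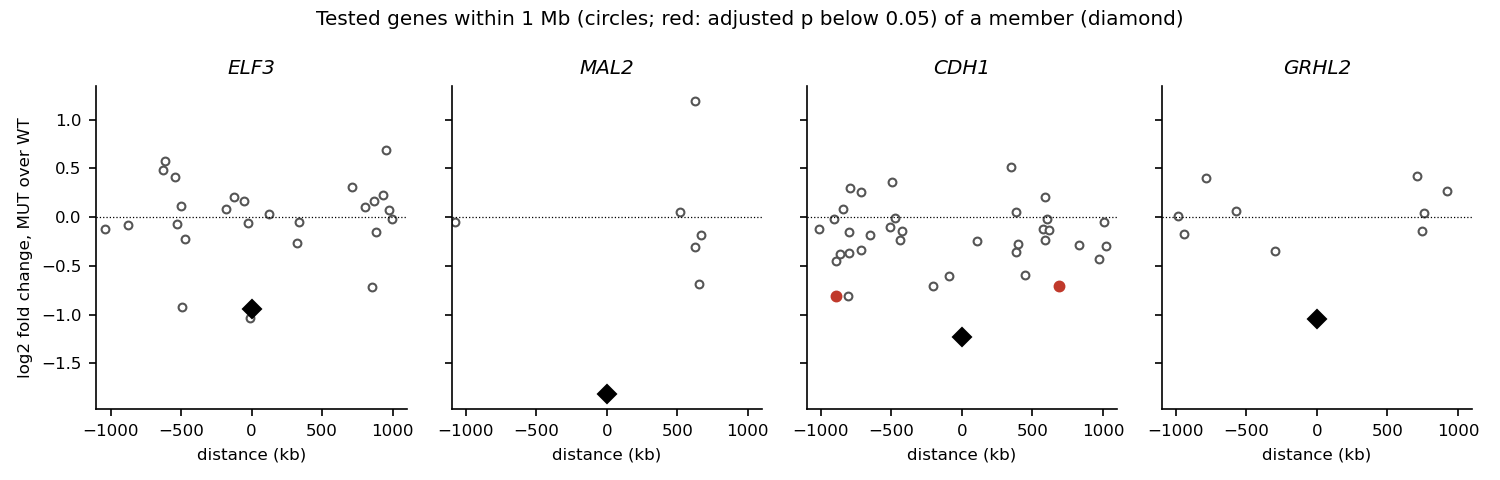
Log2 fold change of MUT over WT (vertical axis) of the tested genes within 1 Mb of ELF3, MAL2, CDH1 and GRHL2 against the distance between gene starts in kb (horizontal axis); the diamond is the member, and red circles passed an adjusted p of 0.05. Most genes around CDH1 lie below 0 (29 of 36), while MAL2 (-1.82) lies below all 6 of its neighbours.

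EPCAM, an adhesion protein of epithelia and carcinomas (chromosome 2, 47369311 to 47387020), had 7.20, 8.24 and 7.11 CPM in MUT and 9.12, 9.83 and 9.58 CPM in WT. MUT replicate 2 was nearest to WT, and no MUT value reached a WT value. The log2 fold change was -0.34 (SE 0.11; edgeR adjusted p = 0.139), or 0.23 by library size alone, where the median of all genes was 0.54. Of 18 partners of EPCAM and other epithelial surface proteins, 13 were tested, 1 rose and 0 fell, and the median was -0.01. The gene that rose was FHL2, a LIM-domain protein that joins the cleaved tail of EPCAM, with 32.3, 25.1 and 30.8 CPM in MUT and 16.9, 14.6 and 19.7 CPM in WT (0.78, SE 0.15; adjusted p = 0.0412). It was not called without any 1 library other than MUT replicate 2 (0.0843 to 0.15), and it had 0.00717 without that one. The protease inhibitor SPINT2 (-0.21, adjusted p = 0.384) and the tricellular junction protein LSR (0.46, adjusted p = 0.0624) did not pass. Of 10 tested adherens junction genes 0 were called (median -0.10), among them NECTIN3 (0.34, adjusted p = 0.247), NECTIN2 (-0.20, 0.5) and alpha-catenin CTNNA1 (0.09, 0.713).

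MAL2, a membrane protein needed for transcytosis to the apical surface (chromosome 8, 119208363 to 119245673), showed the largest fall of the 9. It had 3.69, 3.87 and 4.17 CPM in MUT and 16.4, 13.5 and 11.5 CPM in WT. Every WT value was far above every MUT value. The log2 fold change was -1.82 (SE 0.15; edgeR adjusted p = 0.00118), the 44th lowest of 14808. It passed without each of the 6 libraries in turn, at adjusted p from 0.000556 to 0.0224 and log2 fold changes from -1.92 to -1.66. By library size alone it was -1.28 and did not pass (adjusted p = 0.121). MAL2-AS1, which overlaps MAL2 on the other strand, had 0 counts in every library.

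Of the other genes of apical transport 18 of 22 were tested, of which 11 had values above 0, 1 rose and 0 fell, with a median of 0.08. RAB8A, a GTPase of vesicle delivery to the apical membrane, rose, at 16, 17.1 and 15.8 CPM in MUT and 9.08, 10.3 and 8.82 CPM in WT (0.79, SE 0.12; edgeR adjusted p = 0.0177). It was not called without any 1 library other than MUT replicate 2 (0.0642 to 0.103; 0.00891 without that one). RAB25, an epithelial GTPase of apical recycling, had 26.6, 24.5 and 26 CPM in MUT and 33.9, 40.4 and 34.7 CPM in WT, with no overlap (-0.50, SE 0.12; adjusted p = 0.0677). MALL, a relative of MAL2, overlapped at 27.9, 28.8 and 30.6 CPM in MUT and 32.4, 26.8 and 24.4 CPM in WT (0.06, adjusted p = 0.858), and VAMP8 was at 0.09 (0.808). Of 14 polarity genes, all tested, 11 had values below 0 (median -0.20), 1 fell and 0 rose. PARD3, a scaffold of the apical Par complex, had 1.68, 1.82 and 2.04 CPM in MUT and 3.65, 3.37 and 3.79 CPM in WT (-0.96, SE 0.14; adjusted p = 0.0165). That call too was lost without any 1 library other than MUT replicate 2 (0.0557 to 0.0939; 0.0179 without that one). LLGL2, a basolateral polarity protein, had 8.51, 8.74 and 10.1 CPM in MUT and 12.1, 11.1 and 13.2 CPM in WT (-0.41, adjusted p = 0.113), with no overlap. CRB3 (-0.28, adjusted p = 0.315) and PARD6A (-0.05, 0.886) did not pass.

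**Figure D4:**
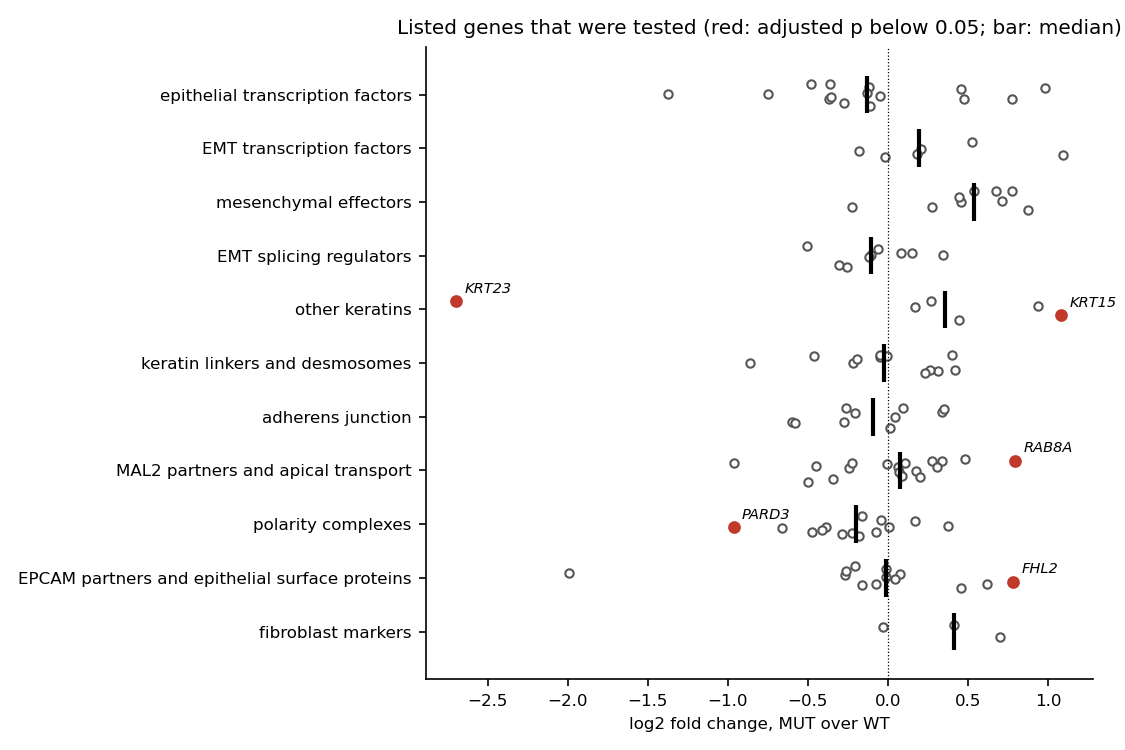
Log2 fold change of MUT over WT (horizontal axis) of the tested genes of each list with 3 or more tested genes (rows); red points passed an adjusted p of 0.05 over all tested genes and black bars are list medians. KRT23 (-2.70) and PARD3 (-0.96) fell, and KRT15 (1.08), RAB8A (0.79) and FHL2 (0.78) rose.

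KRT8, KRT18 and KRT19 carried most keratin mRNA: 95.8%, 94.6% and 96.2% of the TPM of all 55 keratin rows in MUT, and 95.5%, 95.7% and 96.5% in WT. KRT8, the type II keratin of simple epithelia (chromosome 12, 52897191 to 52949860), had 150.01, 151.2 and 146.5 CPM in MUT and 114.9, 126.8 and 115.8 CPM in WT. The groups did not overlap, but the log2 fold change of 0.32 (SE 0.14) did not pass (edgeR adjusted p = 0.255). Its usual partner KRT18 (chromosome 12, 52948855 to 52952906) had 205.3, 173.7 and 202 CPM in MUT and 170.3, 198.2 and 191.1 CPM in WT, which overlap (0.05, SE 0.17; adjusted p = 0.901). KRT19, another type I keratin (chromosome 17, 41523617 to 41528308), had 133.8, 116.4 and 130.3 CPM in MUT and 113.7, 113.8 and 126.3 CPM in WT, which overlap too (0.11, SE 0.15; adjusted p = 0.758). On the scale of TPM rescaled to protein-coding genes, the values were 0.68 for KRT8 (limma adjusted p = 0.0094), 0.42 for KRT18 (0.06) and 0.47 for KRT19 (0.0369), where the median of all genes was 0.27.

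The ratio of KRT8 to KRT18, both in TPM, compares the partners within a library and needs no scaling between libraries. It was 0.563, 0.636 and 0.557 in MUT and 0.508, 0.492 and 0.468 in WT, or 0.585 ± 0.044 and 0.489 ± 0.020 (SD, n = 3 each), with no overlap. MUT replicate 2 was the highest, and the other MUT libraries were close to each other. The 2 genes overlap over 1006 bases on opposite strands in the annotation, and reads there cannot be told apart if the counting did not use strand. Pseudogene rows held few counts: the 52 KRT8 pseudogene rows took 0.81%, 1.35% and 1.15% of the counts of KRT8 and its pseudogenes in MUT and 0.936%, 0.836% and 0.754% in WT. Among them KRT8P36 had 56, 102 and 61 counts in MUT and 31, 38 and 22 in WT. The 68 KRT18 pseudogene rows took 0.0995% to 0.165% in MUT and 0.145% to 0.238% in WT. Adding these rows moved the difference in the ratio of counts from 0.135 to 0.139.

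KRT20, a keratin of mature gut epithelium (chromosome 17), was near 0, with 8, 0 and 2 counts in MUT and 11, 2 and 3 in WT. The 0 in MUT replicate 2 allows up to 0.0308 CPM (3 counts), for counting error only. No fold change is given for it. Of 16 other keratins 6 were tested, of which 1 fell and 1 rose (median 0.36). KRT23, a type I keratin, fell the most of the tested list genes, at 0.479, 0.472 and 0.503 CPM in MUT and 2.79, 2.97 and 3.70 CPM in WT. Its log2 fold change was -2.70 (SE 0.18; edgeR adjusted p = 0.000463), and it passed without each of the 6 libraries in turn (0.000187 to 0.00924). KRT15, a type I keratin of stratified epithelium, rose, at 5.30, 5.43 and 4.22 CPM in MUT and 2.35, 2.45 and 2.27 CPM in WT (1.08, SE 0.13; adjusted p = 0.00894). It was not called without MUT replicate 1 (0.0578), WT replicate 1 (0.0582) or WT replicate 2 (0.0642). KRT23, KRT15, KRT19 and KRT20 lie in the same keratin cluster of chromosome 17: KRT15 starts 9.87 kb from the start of KRT19 and KRT23 46.8 kb from that of KRT20. Between them KRTAP2-3, of a family of near-identical genes and thus uncertain, rose (1.48, adjusted p = 0.0183), as did CASC3, an exon junction protein gene within 1 Mb of KRT20 (0.65, adjusted p = 0.0475). The cluster thus held calls in both directions, and KRT10, also in it, did not pass (0.17, adjusted p = 0.734). No gene was called among 12 tested linkers of keratin and desmosome proteins (median -0.03). Plakoglobin JUP (-0.05, adjusted p = 0.87) and PKP3 (-0.01, 0.982) overlapped between the groups, and PERP, a desmosomal p53 target, was at 0.40 (0.0881).

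**Figure D5:**
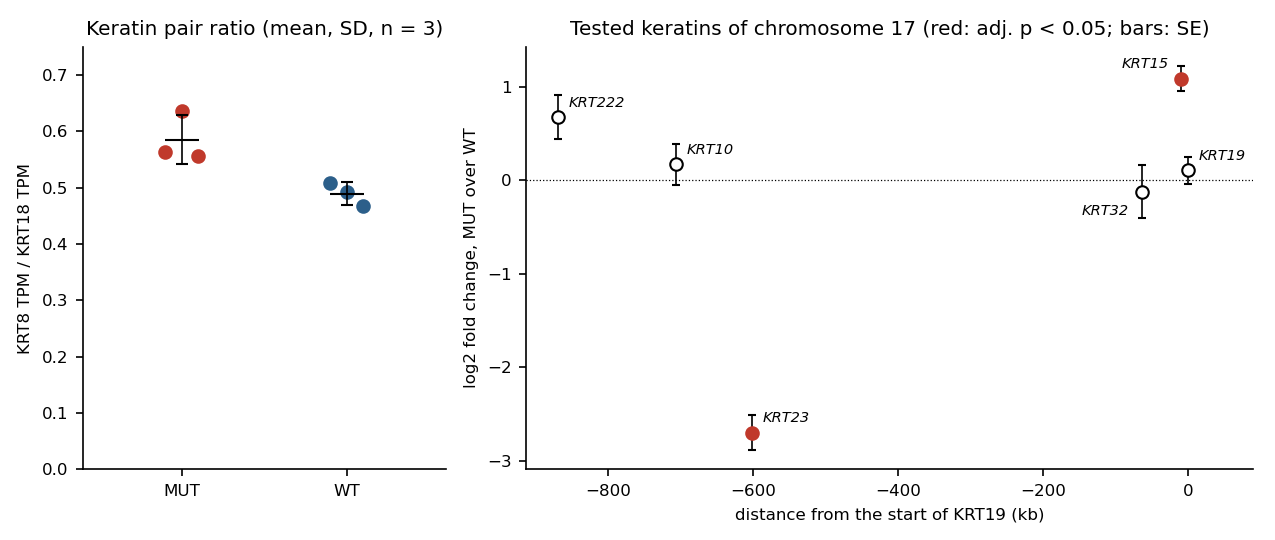
Left, ratio of KRT8 to KRT18 in TPM in each library (vertical axis from 0), MUT left and WT right, with mean and SD (n = 3); the MUT values (0.557 to 0.636) lie above the WT values (0.468 to 0.508). Right, log2 fold change of MUT over WT (vertical axis, bars are the SE) of the tested keratins of chromosome 17 by distance from the start of KRT19 in kb; KRT23 (-2.70) and KRT15 (1.08), in red, passed an adjusted p of 0.05.

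Mesenchymal genes gave no call in edgeR's test with the default low-count filter. Of 6 tested transcription factors of the epithelial-mesenchymal transition 4 had values above 0 (median 0.20), and of 9 tested mesenchymal effectors 8 did (median 0.54). Over all tested genes 7207 of 14808 did. Of these 9 effectors 2 were higher in MUT without overlap, and of all tested genes 1891 of 14808 (12.8%) were. The summed level of the 12 listed effectors overlapped, at 47.8 to 56.3 CPM in MUT and 44.9 to 61.7 CPM in WT. TCF3, an E-protein that can repress CDH1, had 17.3, 18.4 and 16.3 CPM in MUT and 11.3, 11.8 and 13.1 CPM in WT (0.52, SE 0.12; edgeR adjusted p = 0.0576). TWIST1 had 0.706, 0.76 and 0.955 CPM in MUT and 0.377, 0.267 and 0.509 CPM in WT (1.09, SE 0.31; adjusted p = 0.104), and the receptor kinase AXL 5.25, 3.46 and 4.79 CPM in MUT and 2.55, 2.28 and 3.08 CPM in WT (0.78, SE 0.18; adjusted p = 0.0663). None of these 3 overlapped between the groups, as was so for 26.1% of all tested genes. Without MUT replicate 2, TCF3 (edgeR adjusted p = 0.0455) and AXL (0.0127) passed, in a fit that called 442 genes against 283 with all libraries. None of the 3 passed with any other 1 library left out. TCF3 and AXL also passed in DESeq2's test, with a minimum of 1 CPM and without a low-count filter, where TWIST1 passed too. AXL passed with the replicate block and in the 4 libraries low in ribosomal RNA. All 3 passed on TPM rescaled to protein-coding genes, where 1664 of 1734 called genes were higher and the median was 0.27. None of the 3 was called by library size alone, with DESeq2's size factors or in limma on TPM that was not rescaled. SNAI1 (-0.02, adjusted p = 0.972), vimentin VIM (0.28, 0.773) and S100A4 (-0.23, 0.519) overlapped. Vimentin ranged from 1.87 to 2.73 CPM in MUT and from 0.854 to 3.24 CPM in WT. Of 15 genes of intestinal differentiation 1 was tested, the carbonic anhydrase CA2, with 5.57, 6.72 and 5.97 CPM in MUT and 4.30, 4.16 and 4.17 CPM in WT (0.53, SE 0.11; adjusted p = 0.0514). Of the other 14, 9 had 0 counts in every library. ANPEP and VIL1 reached at most 0.107 CPM in MUT and 0.0668 CPM in WT. Genes of the epithelial lists given above as not passing also passed in other settings. LSR, MBNL1, RAB25 and CA2 passed in DESeq2's test, and LSR and CA2 with a minimum of 1 CPM. EHF, CDH3 and CA2 passed without a low-count filter. CA2 also passed without abundant noncoding and ribosomal RNA. On TPM rescaled to protein-coding genes, where most called genes were higher, CA2, LSR, SOX9, NECTIN3, PERP and HNRNPM passed. Over the 11 lists on epithelial and mesenchymal genes, 5 of 113 tested genes were called (4.42%), against 1.91% of all tested genes, and lists share this contrast with the members.

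Per length, on the scale of TPM rescaled to protein-coding genes, the order of the members' levels was KRT18, KRT19, KRT8, EPCAM, MAL2, ESRP1, ELF3, GRHL2, CDH1 and KRT20. KRT18 was at 763 ± 62.6 in MUT and 567 ± 22.2 in WT (SD, n = 3 each), KRT8 at 446 ± 31.3 in MUT and 277 ± 10.4 in WT, and EPCAM at 27.1 ± 4.18 in MUT and 26.5 ± 0.27 in WT. The median log2 fold change of all genes on this scale was 0.27, so these levels do not replace the fold changes given above. The steps from KRT18 to KRT19, KRT19 to KRT8, KRT8 to EPCAM, EPCAM to MAL2, ELF3 to GRHL2 and GRHL2 to CDH1 held in 3 of 3 libraries of either genotype. MAL2 and ESRP1 differed in order between the genotypes: MAL2 was the higher in 0 of 3 MUT libraries and in 3 of 3 WT libraries, with 7.61 ± 1.02 for MAL2 and 9.41 ± 1.87 for ESRP1 in MUT and 20.8 ± 4.50 and 9.90 ± 1.86 in WT. ESRP1 was above ELF3 in 3 of 3 MUT libraries and 2 of 3 WT libraries, and their WT levels (9.90 ± 1.86 and 10.1 ± 1.19) did not differ beyond their spread.

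The protein-coding genes most like ELF3 across the 6 libraries, among 4219 whose log2 CPM averaged 2 or more, were ARL6IP4, SSBP4, TAF15, HNRNPF and TUBB3 (Pearson's r of log2 CPM from 0.991 to 0.995). For MAL2 they were CIB2, MIF4GD, NUDT21, PLIN2 and PUM2 (0.988 to 0.992). The libraries fall into the 2 genotypes, and genes with unlike fold changes stand in these lists: PLIN2 differed by -0.22 and TUBB3 by -2.45 on the log2 scale.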

How the data were processed

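RNA of 3 MUT and 3 WT libraries was analysed from the expected counts deposited by the authors, which were all whole numbers, so that rounding changed none. The deposited TPM and FPKM, normalised by the authors for depth and length, gave ratios and alternatives. Build hg38 and the tools STAR 2.5.2b, RSEM 1.2.28, FastQC 0.12.1 and DESeq2 1.42.0 are listed, with no roles, per the submitters' processing notes. Strandedness of the counting is not given in the sources used here. Of 59251 symbols 57842 matched a RefSeq table of GRCh38.p14, which gave coordinates and gene class; strands came from GENCODE 29.

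In R 4.3.3 with edgeR 4.0.16, genes were kept by filterByExpr (minimum count 10, total 15), scaled by TMM and tested by the quasi-likelihood F-test with no covariate; an adjusted p below 0.05 (Benjamini-Hochberg, over all 14808 tested genes) was a call. The SE is the fold change over the square root of F. Alternatives used limma 3.58.1 and DESeq2 1.42.0. The procedure was tested on simulated counts. The members, lists and tests were chosen with earlier results of these data known. Named were all members, up to 4 called genes per list (with fewer than 2 called, also the 3 with the highest TPM), called genes within 1 Mb of a member, the 5 genes most like ELF3 and MAL2, and genes said to be picked later. No pair of libraries of a group agreed within counting noise (chi-square per degree of freedom of 23.2 or more), so none was taken for a copy of another; this does not show that they are biological replicates. TMM, TPM and abundant noncoding RNA set the scale, which moves values of all genes together.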

Additional observations from a re-analysis of the deposited data

How the results depend on the processing

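MAL2 and ELF3 stayed the 2 called members with DESeq2's size factors (284 genes called over all, against 283), without abundant noncoding and ribosomal RNA (304) and in the 4 libraries low in ribosomal RNA (395). By library size alone, where the median of all genes was 0.54, 0 members (1 of 9 at an unadjusted p below 0.05, against 3051 of 14808 genes), 2 list genes and 108 genes were called, 95 of them higher, against 146 of 283. Without a low-count filter the calls were 4 members, 14 list genes and 1195 genes; with a minimum of 1 CPM 3 members, 9 list genes and 462; by DESeq2 3 members, 12 list genes and 760. On log2(TPM + 1) with a minimum of 1 TPM, 0 members (0 of 4 at an unadjusted p below 0.05; ELF3 and MAL2 are not tested there), 0 list genes and 21 genes were called by limma. With log2(TPM + 0.1) the limma counts were 0 members, 0 list genes and 10 genes, and with no minimum 0, 0 and 1. With no minimum, 1 of 10 members, 19 of 133 list genes and 1427 of 24385 genes had an unadjusted p below 0.05. EPCAM turned sign in each of these TPM fits (0.18, 0.26 and 0.18), where the medians of all genes were 0.36, 0.49 and 0.03. ESRP1, tested only in the last of them, turned sign to 0.082. TPM rescaled to protein-coding genes, added after seeing the data, called 1734 genes, 1664 of them higher (median 0.27), 22 list genes and 3 members, MAL2, KRT8 and KRT19. The cause of these shifts was not tested.

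With 1 library left out, 27 to 442 genes, 1 to 2 members and 1 to 7 list genes were called, with all genes at 442 without MUT replicate 2. The difference in the KRT8 to KRT18 ratio ran from 0.071 to 0.111, lowest without MUT replicate 2. The replicate numbers showed no sign of pairing the libraries, though 3 libraries per group cannot settle this. Deviations of same-numbered libraries correlated at -0.29, -0.04 and 0.22. With the replicate block 296 genes, the same 2 members and 6 list genes were called. Counts limit CDH1 (14 to 54 per library) and KRT20 (0 to 11). TPM is deposited to 2 decimals, which is coarse for both.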
